A study of Homo sapiens with 8 samples.

Results

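The genes described here are 10 regulators that hold cells in an epithelial or a mesenchymal state. They were taken by name from each of 2 count tables, out of 56638 gene symbols per table, and comprise the transcription factors SNAI1, SNAI2, ZEB1, ZEB2, TWIST1, OVOL1, OVOL2 and GRHL2 and the splicing factors ESRP1 and ESRP2. All 10 were counted in every library and all 10 passed the filter on low counts in every comparison. RNA was sequenced from SCC25, an established line from a squamous cell carcinoma of the human tongue, after loss of the transcription factor ETS1. In the short-term experiment, cells received a pool of small interfering RNAs against ETS1 (ETS1 siRNA) or non-targeting siRNA (siRNA control). In the long-term experiment, cells carried a lentiviral short hairpin RNA against ETS1 (shETS1, a single hairpin) or a control hairpin (shCON), and both hairpin lines were selected with puromycin. Each of the 4 groups had 2 libraries, and no group was treated with TGF-beta. The study's methods call the siRNA replicates biological. For the hairpin lines neither the labels nor the methods say whether the replicates were separate cultures, so those p-values measure the spread between these libraries, which may be technical.

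Epithelial-mesenchymal transition (EMT) is the reversible change by which epithelial cells loosen their junctions and gain motility. SNAI, ZEB and TWIST proteins bind E-box sequences in the promoters of epithelial genes such as CDH1 and, with corepressors, silence them. OVOL and GRHL proteins work in the other direction, in part by repressing ZEB1, and ESRP proteins keep the splicing of many transcripts in its epithelial form. In squamous epithelium SNAI2 is also a normal gene of basal keratinocytes, and OVOL1 is known for its part in keratinocyte differentiation.

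Library totals ranged from 15954616 to 25953213 counts. ETS1, the targeted gene, stood at 288 and 248 CPM (counts scaled to a common library size within each table) in the siRNA control libraries and at 17.4 and 13.2 CPM after ETS1 siRNA. In the shRNA table ETS1 stood at 82.3 and 72.1 CPM in shCON and at 9.76 and 11.1 CPM in shETS1. ETS1 was thus 17.6-fold lower after siRNA (log2 fold change -4.13, SE 0.19, adjusted p = 0.000173) and 7.40-fold lower after shRNA (-2.89, SE 0.10, adjusted p = 3.82e-13). Tests are edgeR's quasi-likelihood F-test, two-sided, with Benjamini-Hochberg adjustment over all genes tested and a call at an adjusted p under 0.1. Structural and mitochondrial RNAs took 0.0025% to 0.0053% of the counts in the siRNA table. Their share was 6.57% and 7.58% in the shCON libraries, and it was larger, at 13.1% and 10.6%, in the shETS1 libraries. The kind of knockdown cannot be told apart from how the libraries of each table were made. Levels are therefore compared within a table.

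Genes of the squamous keratinocyte, such as KRT5, KRT14 and TP63, bore out the label of the line. The 15 keratinocyte markers summed to between 22980 and 38720 CPM in every library, with none at 0. The 10 leukocyte markers summed to at most 4.10 CPM. The 10 fibroblast markers summed to between 47.3 and 54.1 CPM in the siRNA table, to 254 and 282 CPM in shCON and to 1973 and 2077 CPM in shETS1. DCN and LUM made up most of the shETS1 sum, and the markers DPT and C7 were at 0 in shCON. The 8 endothelial markers summed to 2.39 and 2.47 CPM in shCON and to 24.8 CPM in both shETS1 libraries, while the defining endothelial genes PECAM1, CDH5 and EMCN were at 0 in all of them. In bulk RNA, a change in the share of cells of a type and a change in RNA per cell cannot be told apart.

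After shRNA, 8 of the 10 regulators changed, against 60.6% of the 16481 genes tested. The 4 that rose were ZEB1, ZEB2, TWIST1 and OVOL2, against 29.7% of genes called higher, and the 4 that fell were SNAI2, OVOL1, ESRP1 and ESRP2, against 30.9% called lower. The regulators' share is thus read against a background in which most genes changed. After siRNA, ESRP1 alone passed the test, against 3.41% of the 14742 genes tested (1.13% called higher and 2.27% called lower). The CPM of the knockdown and control libraries did not overlap for 9 regulators after shRNA, against 76.6% of genes, and for 4 after siRNA, against 51.9% of genes. The median log2 fold change of the 10 was 0.36 after shRNA and 0.16 after siRNA, beside medians of 0.00066 and 0.0018 over all genes tested.

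**Figure D1:**
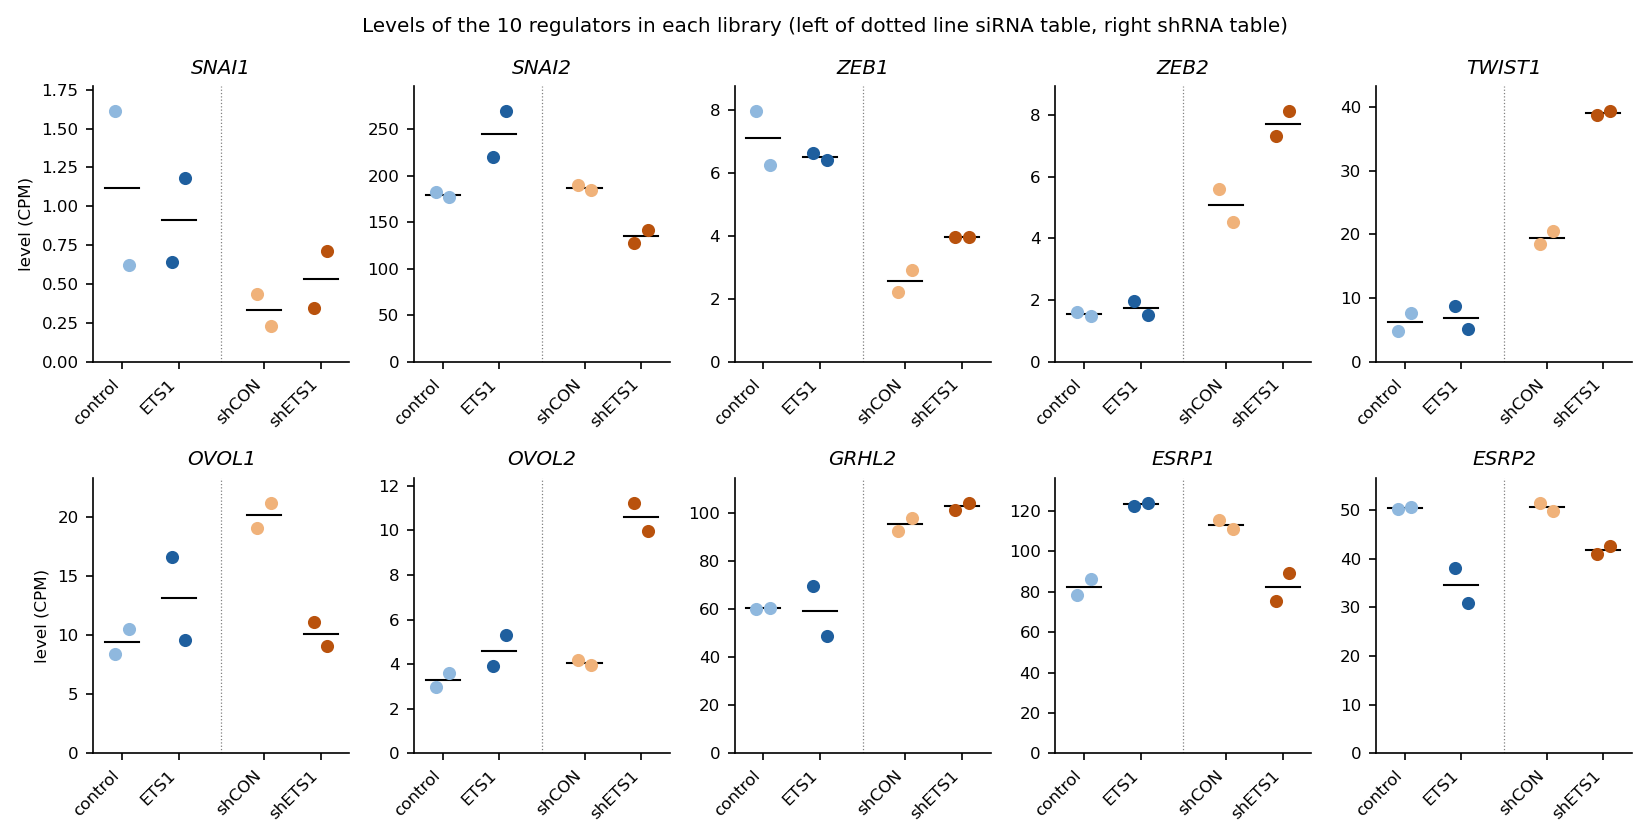
Level of each regulator in CPM (vertical axis, linear from 0) in each of the 8 libraries. Points are libraries and bars are means of 2 libraries. TWIST1 sat at 38.7 and 39.3 CPM in shETS1 against 18.4 and 20.5 CPM in shCON, and OVOL1 and OVOL2 moved in opposite directions.

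SNAI2, or Slug, was the most abundant of the repressors. The gene is annotated on chromosome 8 from 49830157 to 49834299, minus strand, in the human build GRCh37, which is used for all gene positions here. SNAI2 stood at 182 and 177 CPM in the siRNA control and at 220 and 269 CPM after ETS1 siRNA. Both ETS1 siRNA libraries were above both controls, but the difference did not pass the test (log2 fold change 0.45, SE 0.14, adjusted p = 0.162). It did pass with DESeq2 (adjusted p = 0.0738), without a filter on low counts (0.0542) and with all 8 libraries in the fit (0.039). That last fit shares its estimate of the spread with the shRNA libraries, whose common dispersion was lower (0.00402 against 0.0192). In the shRNA table SNAI2 stood at 190 and 184 CPM in shCON and at 128 and 141 CPM in shETS1. SNAI2 therefore fell after shRNA, 1.39-fold, with no overlap of the groups (log2 fold change -0.47, SE 0.07, adjusted p = 3.96e-05).

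SNAI1, or Snail, is the relative of SNAI2 that responds early to TGF-beta in many cells (chromosome 20, 48599517 to 48605423, plus strand). It was counted 32 and 10 times in the siRNA control, 11 and 24 times after ETS1 siRNA, 11 and 6 times in shCON and 8 and 18 times in shETS1. The groups overlapped in both tables. The log2 fold change was -0.31 after siRNA (95% interval -1.49 to 0.88, adjusted p = 0.795) and 0.68 after shRNA (-0.42 to 1.79, adjusted p = 0.284). The siRNA interval holds a 2-fold fall and the shRNA interval a 2-fold rise, so a change of SNAI1 was not detectable at this depth. SNAI2 had 59 to 414 counts per kilobase of exon for each count per kilobase of SNAI1, depending on the library.

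TWIST1, a basic helix-loop-helix factor of mesoderm and of EMT, rose after shRNA (chromosome 7, 19060614 to 19157259, minus strand). It stood at 18.4 and 20.5 CPM in shCON and at 38.7 and 39.3 CPM in shETS1. The groups lay far apart relative to their spread, and TWIST1 was 2.00-fold higher (log2 fold change 1.00, SE 0.09, adjusted p = 7.52e-08). After siRNA the libraries were mixed, with 4.84 and 7.61 CPM in the control and 8.79 and 5.12 CPM after ETS1 siRNA. The log2 fold change was 0.16 (95% interval -0.54 to 0.87, adjusted p = 0.819). Its near relative TWIST2 stood at 6.24 and 5.28 CPM in shCON and at 6.62 and 6.42 CPM in shETS1 (log2 fold change 0.18, adjusted p = 0.333). Fibroblast and mesodermal cells express TWIST1, ZEB1 and ZEB2, and the summed fibroblast markers given above were higher with all 3 genes in shETS1. DCN and LUM made up most of that sum. Of 6 tested fibroblast markers 5 rose, with log2 fold changes of 0.40 for COL6A3 and 3.29 for DCN. The other, MFAP5, did not pass (0.06, adjusted p = 0.783). PDGFRB, THY1, DPT and C7, of the 10 listed, were too low in count to be tested after shRNA. The part of the fibroblast markers in the rise of the 3 regulators was not tested.

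ZEB1 and ZEB2 are zinc finger homeobox repressors, and in epithelial cells the microRNAs of the miR-200 family hold their transcripts low. ZEB1 (chromosome 10, 31607424 to 31818742, plus strand) was counted 56 and 76 times in shCON and 91 and 100 times in shETS1, or 2.23 and 2.93 against 3.97 and 3.96 CPM. It was 1.53-fold higher after shRNA (log2 fold change 0.62, SE 0.20, adjusted p = 0.0138). This call was lost without shCON replicate 1 (0.43, adjusted p = 0.169) and with DESeq2 (adjusted p = 0.1004). After siRNA its groups overlapped, with 7.96 and 6.24 CPM in the control and 6.63 and 6.40 CPM after ETS1 siRNA (log2 fold change -0.13, adjusted p = 0.775).

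ZEB2 (chromosome 2, 145121931 to 145278624, minus strand) was counted 141 and 118 times in shCON and 168 and 205 times in shETS1, or 5.61 and 4.55 against 7.32 and 8.13 CPM. It rose 1.52-fold after shRNA (log2 fold change 0.61, SE 0.15, adjusted p = 0.00286), a size close to that of ZEB1. After siRNA it was counted 32 and 24 times in the control and 34 and 31 times after ETS1 siRNA, and the CPM overlapped (log2 fold change 0.16, adjusted p = 0.823). The 5 hairpin rows of the miR-200 family held 0 to 9 counts per library. Mature microRNAs are too short for these libraries, so their level was not measured.

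Promoter windows, from 250 bases before to 50 after a start site, were taken from RefSeq (build GRCh38.p14). Windows were examined for 2 of the 10 regulators, ZEB1 with 7 start sites and ZEB2 with 1. The search covered all 10 regulators, and no window was obtained for the others, so their promoters were not examined. Their absence here says nothing of what the source holds. A window of each is printed because the search gave windows for these 2 regulators only. For ZEB1 it is the window with the most E-box matches. The motif searched was CACCTG on both strands, which reads CAGGTG where it lies on the other strand. Capitals mark it.
ZEB1 (chr10:31318966-31319265, plus strand): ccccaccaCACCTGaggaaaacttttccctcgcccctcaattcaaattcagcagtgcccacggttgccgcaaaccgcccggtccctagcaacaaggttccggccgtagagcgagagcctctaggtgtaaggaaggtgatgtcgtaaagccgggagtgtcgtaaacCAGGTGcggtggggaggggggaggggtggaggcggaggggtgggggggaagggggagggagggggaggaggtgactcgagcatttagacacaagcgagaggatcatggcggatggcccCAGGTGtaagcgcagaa
ZEB2 (chr2:144520070-144520369, minus strand): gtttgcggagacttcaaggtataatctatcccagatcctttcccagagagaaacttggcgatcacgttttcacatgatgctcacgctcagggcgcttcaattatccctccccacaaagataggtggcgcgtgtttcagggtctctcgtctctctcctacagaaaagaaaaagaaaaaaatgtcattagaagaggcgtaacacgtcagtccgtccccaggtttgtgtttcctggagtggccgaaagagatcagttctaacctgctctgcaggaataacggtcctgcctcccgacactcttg
This ZEB1 window held 3 matches, at -242, -85 and 34 from the start site, and 1 of the other 6 ZEB1 windows held a single match, at -57. The ZEB2 window held 0. Over 35116 promoter windows of the same length, 20.6% held at least 1 match. The motif CCGGAAG, a strong form of the sequence that ETS factors bind, had 0 matches in the 8 windows and was in 10.3% of all windows. The short ETS core GGAA, on either strand, was in 95.5% of all windows and in each of these. These are matches of letters only and say nothing of binding.

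OVOL1 and OVOL2 are paralogous zinc finger repressors, and they moved in opposite directions after shRNA. OVOL2 (chromosome 20, 17937623 to 18039832, minus strand), which represses ZEB1 in epithelial cells, stood at 4.18 and 3.97 CPM in shCON and at 11.2 and 9.99 CPM in shETS1. It was 2.60-fold higher, the largest change among the 10 (log2 fold change 1.38, SE 0.14, adjusted p = 3.74e-07). OVOL1 (chromosome 11, 65554534 to 65564685, plus strand) stood at 19.1 and 21.2 CPM in shCON and at 11.1 and 9.04 CPM in shETS1. On the log2 scale it fell by 1.00 (SE 0.12, adjusted p = 2.17e-06). Neither pair of groups overlapped.

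After siRNA, OVOL1 stood at 8.36 and 10.5 CPM in the control and at 16.6 and 9.56 CPM after ETS1 siRNA. The higher value came from 1 library, the groups overlapped, and the log2 fold change of 0.47 did not pass the test (95% interval -0.13 to 1.08, adjusted p = 0.376). OVOL2 stood at 2.97 and 3.62 CPM in the control and at 3.90 and 5.32 CPM after ETS1 siRNA. Its groups did not overlap, but the difference of 0.49 did not pass either (95% interval -0.09 to 1.08, adjusted p = 0.342). Within a library, the ratio of OVOL1 to OVOL2 counts per kilobase was 2.64 and 3.09 in shCON and 0.573 and 0.524 in shETS1, so the order of the paralogs turned. In the siRNA control the ratio was 1.63 and 1.68, and after ETS1 siRNA it was 2.47 and 1.04. The third paralog, OVOL3, had 2 to 9 counts per library.

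GRHL2, a grainyhead factor that sustains CDH1 and other junction genes, had the smallest log2 fold change of the 10 in both knockdowns (chromosome 8, 102504667 to 102681954, plus strand). It stood at 92.3 and 98.0 CPM in shCON and at 101 and 104 CPM in shETS1. The shETS1 libraries were higher without overlap, yet the difference of 0.11 did not pass (95% interval -0.04 to 0.26, adjusted p = 0.214), and with library size alone as the scaling it was -0.01. After siRNA it stood at 60.0 and 60.5 CPM in the control and at 69.4 and 48.8 CPM after ETS1 siRNA, where the libraries lay on either side of the control (log2 fold change -0.03, 95% interval -0.41 to 0.35, adjusted p = 0.945). Its relative GRHL1 had a log2 fold change of -0.0084 after shRNA (adjusted p = 0.949) and -0.25 after siRNA (adjusted p = 0.499).

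ESRP1 and ESRP2 are RNA-binding proteins of epithelial cells that direct, among others, the epithelial exon of FGFR2. ESRP1 (chromosome 8, 95653302 to 95719694, plus strand) stood at 78.3 and 86.4 CPM in the siRNA control and at 122 and 124 CPM after ETS1 siRNA. It rose after siRNA (log2 fold change 0.58, SE 0.13, adjusted p = 0.0856). That call was lost when any of 3 libraries was left out, with adjusted p = 0.628 without siRNA control replicate 1, 0.142 without siRNA control replicate 2 and 0.104 without ETS1 siRNA replicate 2. In the shRNA table ESRP1 stood at 115 and 111 CPM in shCON and at 75.5 and 89.2 CPM in shETS1. There it fell 1.37-fold (log2 fold change -0.46, SE 0.08, adjusted p = 0.000147). ESRP1 was the 1 regulator called in both knockdowns by edgeR as described above, and the directions were opposite.

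ESRP2 (chromosome 16, 68262936 to 68272005, minus strand) was lower in both knockdowns. It stood at 51.5 and 49.9 CPM in shCON and at 40.9 and 42.6 CPM in shETS1, a fall of 1.21-fold (log2 fold change -0.28, SE 0.08, adjusted p = 0.00639). After siRNA it stood at 50.3 and 50.7 CPM in the control and at 38.1 and 30.9 CPM after ETS1 siRNA. The groups did not overlap, and the log2 fold change of -0.55 (SE 0.14, adjusted p = 0.101) lay just outside the threshold. ESRP2 passed with DESeq2 (adjusted p = 0.052) and under 6 other settings of scaling, filter or libraries fitted, among them DESeq2 size factors in edgeR (adjusted p = 0.0991), and not with ETS1 siRNA replicate 2 or either control left out (adjusted p up to 0.558). The ratio of ESRP1 to ESRP2 counts per kilobase was 1.66 and 1.81 in the siRNA control and 3.42 and 4.27 after ETS1 siRNA. In shCON it was 2.39 and 2.37, against 1.97 and 2.23 in shETS1. The balance between the paralogs thus moved toward ESRP1 after siRNA and slightly toward ESRP2 after shRNA, with no overlap in either table.

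**Figure D2:**
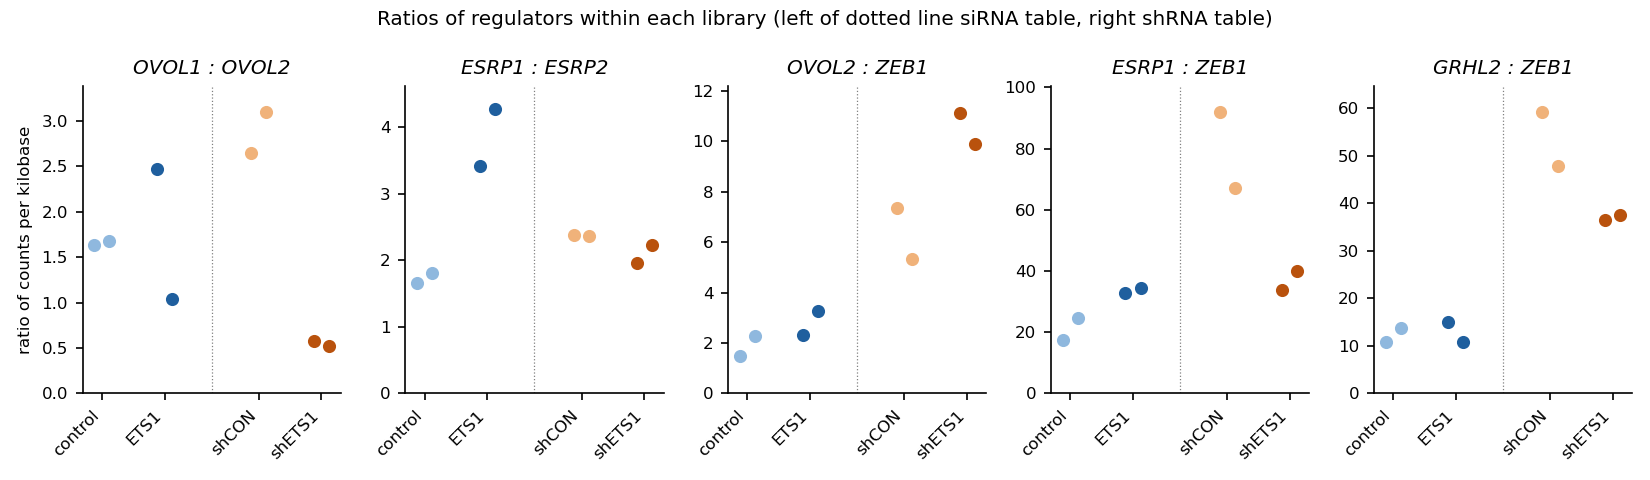
Ratio of the counts per kilobase of exon of 2 regulators within the same library (vertical axis, linear from 0), for 5 pairs and 4 groups. Points are libraries. The OVOL1 to OVOL2 ratio was 2.64 and 3.09 in shCON and 0.573 and 0.524 in shETS1, and the ESRP1 to ESRP2 ratio was highest after ETS1 siRNA.

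Ratios of epithelial to mesenchymal regulators did not all move one way. The ratio of OVOL2 to ZEB1 counts per kilobase was 7.36 and 5.32 in shCON and 11.1 and 9.89 in shETS1. That of ESRP1 to ZEB1 went from 92.0 and 67.2 in shCON to 33.8 and 39.9 in shETS1, and that of GRHL2 to ZEB1 from 59.2 and 47.8 to 36.5 and 37.6. After siRNA the ESRP1 to ZEB1 ratio was 32.7 and 34.4, above 17.5 and 24.6 in the control. The OVOL2 to ZEB1 ratio was 2.31 and 3.26, next to 1.47 and 2.28 in the control, and the GRHL2 to ZEB1 ratio overlapped, at 14.9 and 10.9 against 10.8 and 13.9. All of these ratios are descriptions, and those with ZEB1 rest on its 56 to 158 counts per library.

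Whether the response differed between the knockdowns was tested as an interaction, the shRNA effect minus the siRNA effect in 1 fit of all 8 libraries. It passed for 6 of the 10 regulators, against 34.8% of the 17190 genes tested. The difference was positive for OVOL2 (0.86, SE 0.27, adjusted p = 0.0379), TWIST1 (0.82, SE 0.33, adjusted p = 0.0908) and ZEB1 (0.73, SE 0.27, adjusted p = 0.0666), against 15.1% of genes called in that direction. It was negative for OVOL1 (-1.49, SE 0.32, adjusted p = 0.00655), ESRP1 (-1.06, SE 0.15, adjusted p = 0.000653) and SNAI2 (-0.94, SE 0.16, adjusted p = 0.0016), against 19.7% of genes. Of these, OVOL1, ESRP1 and SNAI2 kept their calls when any 1 library was left out. The call was lost for TWIST1 without any of 6 of the 8 libraries, for ZEB1 without any of 5 and for OVOL2 without any of 3. Among other settings, it was also lost for ZEB1 with DESeq2 (adjusted p = 0.173) and for TWIST1 with library size alone as the scaling (adjusted p = 0.131). At a threshold of 0.05 neither passed. Over the settings that kept all libraries, the adjusted p of TWIST1 reached 0.212.

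The interaction did not pass for SNAI1 (0.97, 95% interval -0.85 to 2.79), ZEB2 (0.43, -0.26 to 1.11), GRHL2 (0.12, -0.32 to 0.56) and ESRP2 (0.25, -0.10 to 0.60). The signs of the log2 fold changes were opposite in the 2 knockdowns for 6 of the 10 genes, called or not. They were the same for ZEB2, TWIST1, OVOL2 and ESRP2. The share over all genes was not computed, so nothing is read from this count. After siRNA the signs of SNAI1, ZEB1, ZEB2, TWIST1 and GRHL2 turned when 1 library was left out.

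**Figure D3:**
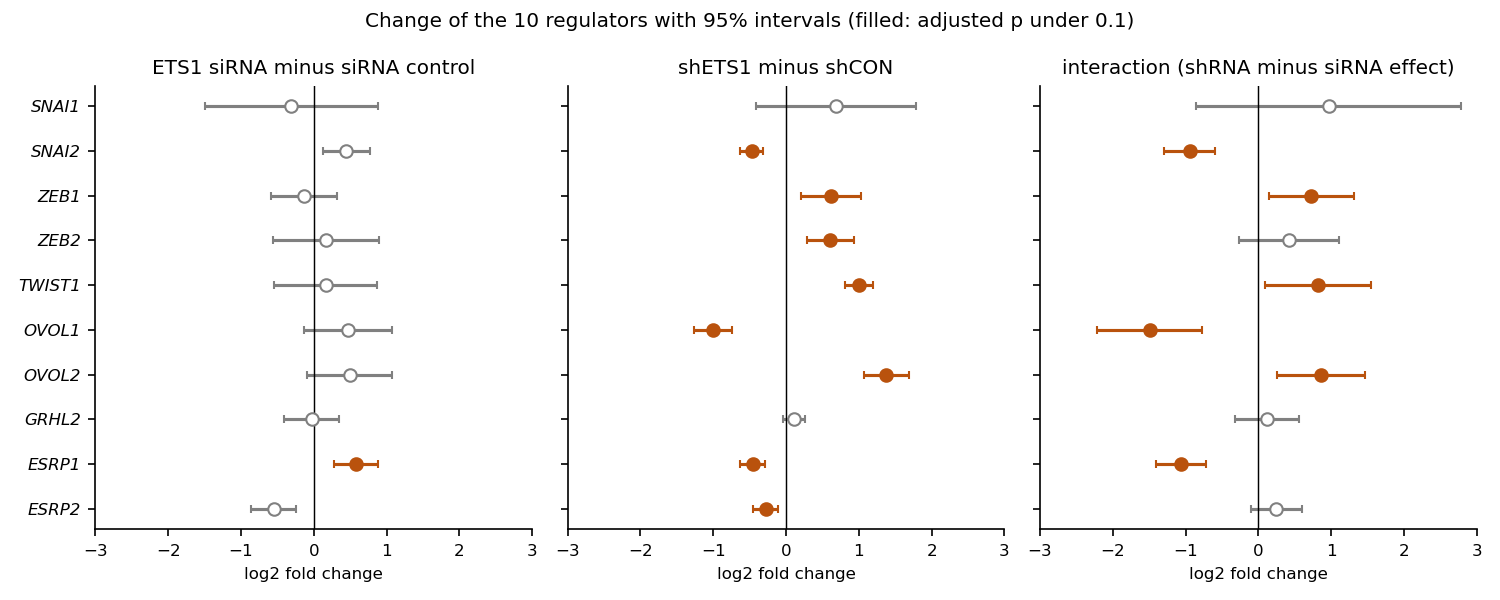
Log2 fold change of each regulator after ETS1 siRNA, after shETS1 and as the difference of these effects (horizontal axes), with 95% intervals from the edgeR fit. Filled points passed an adjusted p under 0.1, which 1, 8 and 6 of the 10 regulators did from left to right.

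Levels between genes were compared per kilobase of exon, as CPM divided by the length of the merged exons. SNAI2 was highest in all 4 groups, with means of 57.0 ± 1.3 (SD, n = 2) CPM per kilobase in shCON and 41.0 ± 3.0 in shETS1. In shCON it was followed by ESRP1 (23.2 ± 0.6), GRHL2 (15.7 ± 0.7), ESRP2 (9.77 ± 0.22), TWIST1 (9.74 ± 0.74), OVOL1 (5.29 ± 0.40) and OVOL2 (1.85 ± 0.07). ESRP2 and TWIST1 overlapped there. ZEB1 (0.298 ± 0.057), SNAI1 (0.196 ± 0.086) and ZEB2 (0.194 ± 0.029) came last, and SNAI1 and ZEB2 overlapped. In shETS1, TWIST1 stood in the second place (19.5 ± 0.2), ahead of GRHL2 (17.0 ± 0.4) and ESRP1 (16.9 ± 2.0), which overlapped, and OVOL2 (4.82 ± 0.40) stood ahead of OVOL1 (2.65 ± 0.39).

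In the siRNA control the first 4 were SNAI2, ESRP1, GRHL2 and ESRP2, followed by TWIST1 and OVOL1, which overlapped, and OVOL2. ZEB1 and SNAI1 overlapped, and ZEB2 was last. With the length of the canonical transcript in place of the merged exons, ZEB2 stood above ZEB1 and SNAI1 in both shRNA groups, ESRP2 above GRHL2 in the siRNA control, OVOL1 above TWIST1 after ETS1 siRNA and ESRP1 above GRHL2 in shETS1. ETS1 itself had 10.8 ± 1.0 CPM per kilobase in shCON and 1.46 ± 0.13 in shETS1.

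**Figure D4:**
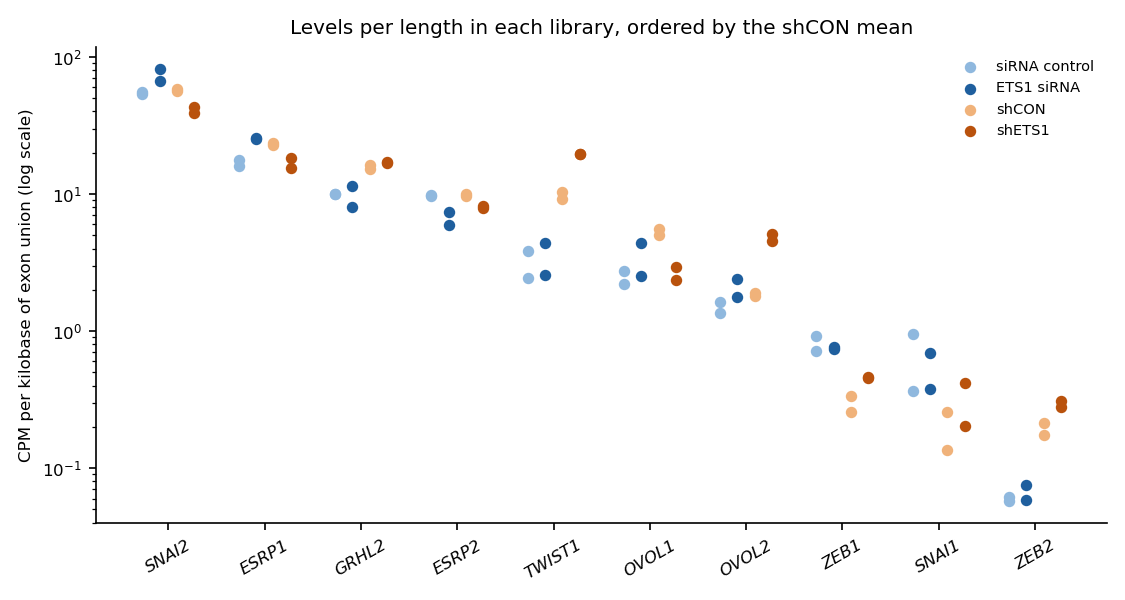
CPM per kilobase of merged exons (vertical axis, log scale) for the 10 regulators in each library, ordered by their mean in shCON. Colours mark the 4 groups and points are libraries. SNAI2 was highest in every group, and ZEB1, SNAI1 and ZEB2 were lowest.

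Overlapping genes limit some of these counts, since the use of strand in counting is not given in the sources used here. ZEB1 shares 396 exon bases with the opposite-strand ZEB1-AS1, which fell after shRNA (log2 fold change -0.58, adjusted p = 0.0225) while ZEB1 rose. ESRP2 shares 227 exon bases with the opposite-strand NFATC3, which also fell after shRNA (-0.40, adjusted p = 0.000902), and OVOL2 shares 59 bases with SNX5 on its own strand. OVOL1 shares 1039 of its 3803 exon bases with an opposite-strand long non-coding RNA (ENSG00000255404) whose symbol was not matched in the count tables. OVOL1-AS1 lies within an intron of OVOL1 and fell from 22 and 23 counts in shCON to 4 and 8 in shETS1 (log2 fold change -1.80, adjusted p = 0.00316). ZEB2-AS1 and the pseudogene AC009951.1, which overlap ZEB2, had at most 5 counts in any library.

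Genes around the regulators were described by lists. Of 14 tested relatives and other EMT transcription factors, 1 rose and 4 fell after shRNA. The 1 that rose was KLF8 (log2 fold change 0.52, SE 0.15). HMGA2, a chromatin protein placed upstream of SNAI and TWIST genes, fell by 1.94 (SE 0.08), from 159 and 148 CPM in shCON to 37.3 and 42.5 CPM in shETS1. SOX9 (-1.44, SE 0.15) and TCF3, which encodes the E-box binding E proteins (-0.84, SE 0.08), also fell. After siRNA, HMGA2 was the 1 gene of this list that passed, at 543 and 360 CPM in the control and 69.6 and 78.2 CPM after ETS1 siRNA (log2 fold change -2.61, SE 0.20, adjusted p = 0.00318).

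Of 43 epithelial genes that EMT factors are known to repress, 17 rose and 14 fell after shRNA, with a median log2 fold change of -0.0043. Those that rose were led by the tight junction gene CLDN1, from 159 and 156 CPM to 541 and 605 CPM (log2 fold change 1.86, SE 0.08), KRT19 (1.60, SE 0.10), SH3YL1 (1.22, SE 0.08) and the envelope gene PPL (0.88, SE 0.08). Those that fell were led by the tricellular junction gene LSR (-1.01, SE 0.10), the P-cadherin gene CDH3 (-0.69, SE 0.08), KRT18 (-0.65, SE 0.07) and C1orf116 (-0.70, SE 0.08). CDH1, the E-cadherin gene and the best known target of SNAI and ZEB repression, was chosen here after its values were seen. It stood at 200 and 183 CPM in shCON and at 192 and 193 CPM in shETS1 (log2 fold change 0.0084, adjusted p = 0.933). After siRNA, KRT19 (0.73, SE 0.18) and PKP3 (0.57, SE 0.14) rose and ITGB6 (-0.71, SE 0.17) fell, while 40 of the 43 did not pass.

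Of 38 mesenchymal genes, 15 rose and 16 fell after shRNA, with a median of -0.0075 and a range from -3.51 to 4.90. The upper end was POSTN, chosen after its values were seen, which was counted 2 and 4 times in shCON and 88 and 88 times in shETS1. The strongest calls among those that rose were the matrix genes COL3A1 (3.54, SE 0.09), DCN (3.29, SE 0.09), LUM (2.95, SE 0.09) and COL1A2 (2.00, SE 0.12). Those that fell included FGF2 (-2.93, SE 0.10), NT5E (-1.51, SE 0.08) and the cadherin gene CDH11 (-3.51, SE 0.20). The common EMT markers VIM (-0.58, SE 0.07), CDH2 (-0.50, SE 0.09) and AXL (-1.06, SE 0.08) fell too. FN1 did not pass (0.22, SE 0.12, adjusted p = 0.118). These markers were also chosen after their values were seen. DCN and LUM are also on the fibroblast list, of which 5 of 6 tested genes rose and 0 fell by edgeR, with 5 at an unadjusted p under 0.05 (4 rose and 0 fell with DESeq2). Without the genes shared with that list, 11 mesenchymal genes rose and 16 fell, with a median of -0.18. After siRNA, LOX (0.87, SE 0.14) and COL1A1 (0.73, SE 0.14) rose and ITGB3 (-0.97, SE 0.18) fell, of 40 tested.

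In the TGF-beta pathway, the best known inducer of SNAI and ZEB genes, 9 of 21 genes rose and 7 fell after shRNA. Ligand TGFB1 fell by 1.11 (SE 0.10), from 32.4 and 31.1 CPM to 13.9 and 15.4 CPM, as did LTBP1 (-0.86, SE 0.07), BMP7 (-0.61, SE 0.10) and the SMAD corepressor SKI (-1.23, SE 0.12). Receptors TGFBR3 (1.71, SE 0.09) and TGFBR2 (0.77, SE 0.08) rose, and so did ID2 (1.17, SE 0.09) and TGIF1 (0.86, SE 0.07). After siRNA, TGFB2 (-0.53, SE 0.12) and SKIL (-0.85, SE 0.21) fell.

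Of 20 corepressors and partners through which SNAI and ZEB proteins act, 13 fell and 3 rose after shRNA, with a median of -0.33. DNMT1, the maintenance DNA methyltransferase, fell by 1.52 (SE 0.08), and the chromatin enzyme genes SMARCA4 (-1.31, SE 0.11), SUV39H1 (-1.22, SE 0.14) and EZH2 (-0.87, SE 0.09) fell as well. AJUBA, a LIM adaptor of SNAI1, rose by 0.76 (SE 0.07). After siRNA, SUZ12 alone passed (-0.70, SE 0.13), while DNMT1 had a log2 fold change of 0.02 (adjusted p = 0.941). Of 15 genes for the turnover of SNAI and ZEB proteins, 5 rose and 4 fell after shRNA, among them the ubiquitin ligase genes FBXW7 (0.64, SE 0.08) and FBXO11 (-0.43, SE 0.12) and the kinase gene GSK3B (-0.58, SE 0.10). By edgeR, 0 of the 15 passed after siRNA, with 3 at an unadjusted p under 0.05 and 0 called by DESeq2.

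Splicing regulators other than the ESRP proteins moved mostly down after shRNA, with 11 of 14 lower and 2 higher (median -0.32). HNRNPM, which can act against ESRP proteins on shared exons, fell from 127 and 125 CPM to 57.1 and 64.3 CPM (-1.05, SE 0.08). HNRNPA1 (-0.73, SE 0.08), KHDRBS1 (-0.73, SE 0.10) and PTBP1 (-0.68, SE 0.07) fell too. MBNL2 (0.31, SE 0.07) and PTBP2 (0.31, SE 0.08) rose. After siRNA, MBNL1 alone passed, at 0.60 (SE 0.13). Of 20 genes whose splicing ESRP proteins control, 6 rose and 10 fell after shRNA. FGFR2 rose from 30.4 and 29.9 CPM to 61.4 and 62.2 CPM (log2 fold change 1.04, SE 0.08), and CD44 fell from 343 and 280 CPM to 137 and 184 CPM (-0.96, SE 0.11). PLEKHA1 fell by 1.79 after siRNA (SE 0.14) and rose by 0.49 after shRNA (SE 0.07). Counts per gene do not show which isoform was made.

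**Figure D5:**
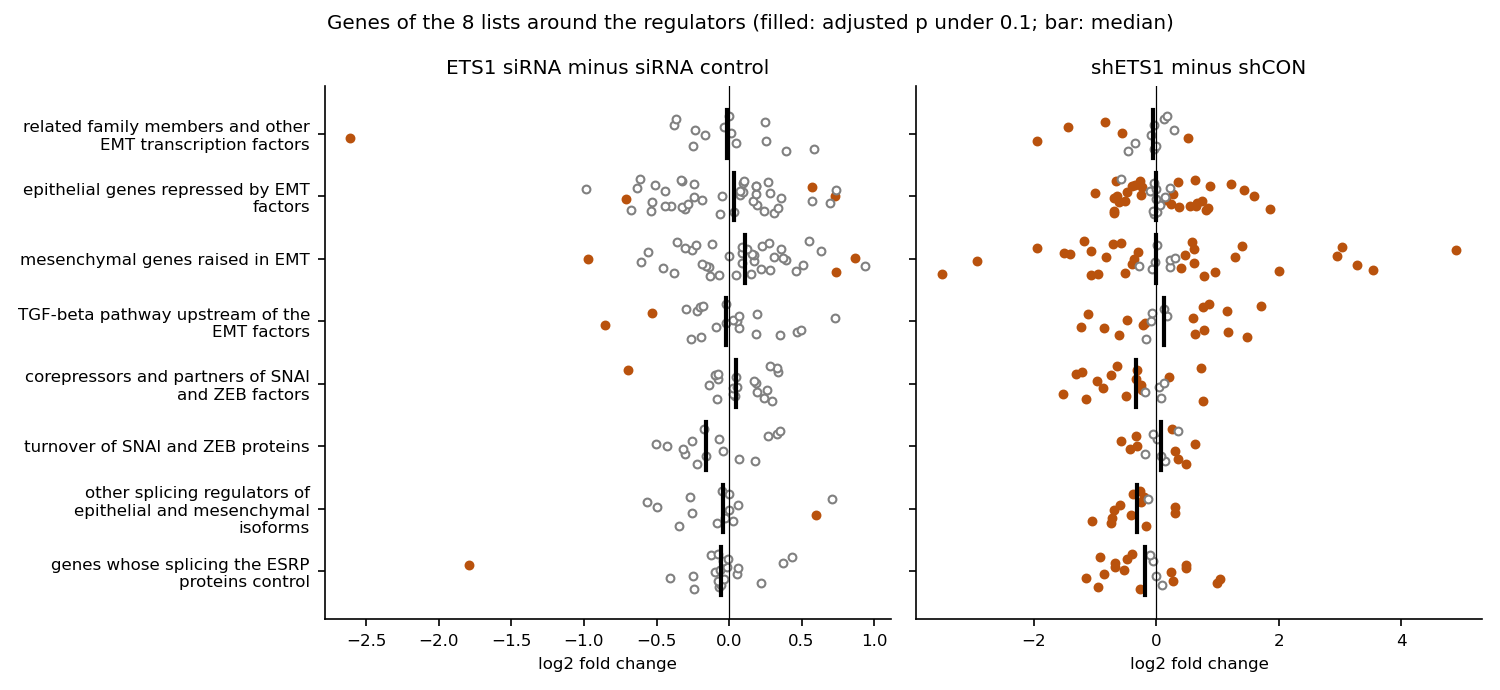
Log2 fold changes (horizontal axes, on different ranges) of the tested genes of 8 lists after ETS1 siRNA, left, and after shETS1, right. Filled points passed an adjusted p under 0.1 and bars are list medians. After shRNA the corepressors and the other splicing regulators had medians of -0.33 and -0.32, and the epithelial and mesenchymal lists had medians near 0.

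These shares stand against 60.6% of all genes called after shRNA, 29.7% higher and 30.9% lower. After siRNA 3.41% were called, 1.13% higher and 2.27% lower. Nothing is read from the shares as particular to a list. With library size alone as the scaling, the median log2 fold change over all genes in shETS1 went from 0.00066 to -0.125, and the share of calls that were higher from 49.1% to 36.6%. Under that scaling the epithelial list had 12 higher and 15 lower, and the TGF-beta list 9 and 9. LOX, SH3YL1, KRT18, VIM, FGF2, TGFB1, DNMT1, FBXO11, MBNL1 and PTBP1 share exon bases with other genes, from which their counts may not be told apart. Some keratinocyte genes moved with the shRNA groups as well, with 10 of 15 higher, among them KRT16 (2.59, SE 0.09) and DSG3 (1.43, SE 0.09), and 4 lower, among them TP63 (-0.40, SE 0.09). After siRNA 0 of these 15 passed by edgeR, with 5 at an unadjusted p under 0.05 and 4 called higher by DESeq2. Of the fibroblast list, 0 of 8 tested genes passed after siRNA by edgeR, with 1 at an unadjusted p under 0.05 and 0 called by DESeq2. Of the endothelial markers, the receptor genes KDR (3.76, SE 0.14) and TEK (3.02, SE 0.57) rose after shRNA and were the only 2 tested there, and no leukocyte marker passed in either knockdown by edgeR or DESeq2, with 0 at an unadjusted p under 0.05.

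Likeness of pattern was measured as the root mean square difference of log2 CPM over the 8 libraries, each centred on the control mean of its own table. Nearest to OVOL2 were BRE (0.084), TCEAL1 (0.099) and AQP3 (0.114), where the median over 10050 genes was 0.731. Nearest to TWIST1 were CLCA2 (0.083) and OSR2 (0.106), against a median of 0.599. Nearest to OVOL1 were PAQR4 (0.120), IFIH1 (0.128) and HIST1H2BJ (0.132), against a median of 0.595. CLCA2, for instance, had log2 fold changes of 0.0091 after siRNA and 0.91 after shRNA, and PAQR4 of 0.57 and -0.94. These are descriptions over libraries that share their controls within each table.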

How the data were processed

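RNA was sequenced from 8 SCC25 libraries in 4 groups of 2. Per the labels and the study's methods, the authors mapped single-end TruSeq reads to GRCh37 with TopHat2 2.1.1 and Bowtie2 2.2.6 and assigned them to Ensembl genes with featureCounts 1.5.0. The deposited values are raw counts per gene symbol, in 1 table for each knockdown, without normalization. The settings for strand and for reads with several matches are not given in the sources used here. The 4 libraries of each table were fitted separately, knockdown against control, with edgeR 4.0.16 in R 4.3.3 (TMM scaling, filterByExpr, quasi-likelihood F-test, two-sided, adjusted p under 0.1), without covariates. The interaction was tested in 1 fit of all 8 libraries. The standard error was obtained from the log2 fold change and the F statistic. The authors used DESeq2 with a false discovery rate, and DESeq2 1.42.0 was an alternative here. CPM were computed here from the deposited counts, with library sizes scaled within each table. Lengths came from GENCODE annotation on GRCh37, and promoter windows from RefSeq on GRCh38.p14. Common dispersion was 0.0192 in the siRNA and 0.00402 in the shRNA libraries, so the siRNA comparison was less precise.

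The regulators and the 12 gene lists were chosen with earlier results of these data known. From each list, the text names up to 4 called genes per comparison and direction with the smallest adjusted p and a mean of at least 5 CPM. A few genes that these rules name are not reported here. Genes nearest in pattern are given for the 3 regulators with the smallest adjusted p. Alternatives were other scalings, filters and tools, a stricter threshold, a block for replicate number and leaving out each library.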

Additional observations from a re-analysis of the deposited data

Results flagged for a closer look

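For 6 regulators the response differed between the knockdowns by a test of the difference itself (shRNA effect minus siRNA effect, log2, edgeR's quasi-likelihood test with adjustment over all genes). The difference was -0.94 for SNAI2, which had log2 fold changes of 0.45 after siRNA and -0.47 after shRNA. It was -1.49 for OVOL1, which had 0.47 after siRNA and fell by 1.00 after shRNA, and -1.06 for ESRP1 (0.58 and -0.46). It was 0.86 for OVOL2 (0.49 and 1.38), 0.82 for TWIST1 (0.16 and 1.00) and 0.73 for ZEB1 (-0.13 and 0.62). Without structural and mitochondrial RNAs the same 6 regulators passed, with differences of -0.93, -1.48, -1.05, 0.87, 0.83 and 0.74 in the order given. The shRNA libraries were also deeper than the siRNA libraries, and the part of depth was not tested. In this design the kind of knockdown cannot be told apart from its duration, puromycin selection or how each table's libraries were made.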

How the results depend on the processing

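The siRNA comparison depended most on the processing. In place of 502 genes called, there were 1466 without a filter on low counts, 793 among protein-coding genes with at least 1 TPM, 797 with DESeq2, 190 at an adjusted p under 0.05, 2166 with all 8 libraries in the fit, and 72 to 1478 when 1 library was left out (72 without siRNA control replicate 1, 1478 without ETS1 siRNA replicate 1). In place of 1 regulator called after siRNA there were 2 with DESeq2 size factors, with library size only, with at least 10 counts in every library or with the TPM filter, 3 without a filter, with DESeq2 or with all 8 libraries, 0 at an adjusted p under 0.05, and 0 to 3 with 1 library left out. The cause was not tested. After shRNA 7 or 8 regulators were called under every alternative. The count with an interaction was 3 to 8 with 1 library left out, 3 without shETS1 replicate 1, and 5 with DESeq2 or with library size only. Leaving out 1 library turned the sign after siRNA of genes that had no call, with ranges of -0.84 to 0.56 for SNAI1, -0.288 to 0.0627 for ZEB1, -0.0235 to 0.34 for ZEB2, -0.26 to 0.52 for TWIST1 and -0.30 to 0.20 for GRHL2, and of the GRHL2 interaction (-0.12 to 0.39). GRHL2 after shRNA was -0.015 with library size only. No called regulator changed direction under the alternatives run. Small counts limit SNAI1, ZEB1 and ZEB2.

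The replicate numbers did not pair the libraries, since same-numbered deviations from the group means correlated at -0.59 (siRNA) and -0.41 (shRNA). With a replicate block, 97 genes and 0 regulators were called after siRNA. With the pairing crossed, an alternative chosen after seeing the data, 3238 genes and 4 regulators were called.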
